A study of Mus musculus with 8 samples.

Results

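The comparison described here set LLC1 cells that had received 5 fractions of 2 Gy of X-rays (5x2 Gy, 10 Gy in total) against LLC1 cells that had received 1 dose of 2 Gy. LLC1 is a cell line from a Lewis lung carcinoma, which arose in the lung of a C57BL/6 mouse. The members were chosen by treatment label alone: 3 arrays of 5x2 Gy and 3 of a single 2 Gy, 6 of the 8 arrays of the series. On each array RNA of irradiated cells, harvested 4 h after treatment, was labelled with Cy5 and RNA of untreated LLC1 cells with Cy3, always in that orientation. The labels count the arrays of a regimen as biological replicates. They give neither the interval between fractions nor whether the untreated RNA was one common pool, and the regimens differ in total dose as well as in the number of fractions. The 2 arrays of a single 10 Gy dose enter only where they are named, and a further replicate of 10 Gy was not analysed here.

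Ionising radiation breaks DNA, and the kinase ATM and its relatives pass that signal to the transcription factor p53. Stabilised p53 switches on genes such as Cdkn1a, an inhibitor of cyclin-dependent kinases, and Mdm2, the ligase that degrades p53 again. Cells that stop cycling lose the messages of G2 and mitosis, which the DREAM complex and its relatives repress. Fractionation, as used in radiotherapy, exposes cells to a new dose while the response to an earlier one may still be running.

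Each value below is a log2 ratio of irradiated over untreated cells, so that 0 means an equal signal and 1 a doubling. A difference is the mean log2 ratio of the 5x2 Gy arrays minus that of the 2 Gy arrays, given ± its standard error (SE), and a gene is called where limma's moderated test, fitted to these 6 arrays, gave a Benjamini-Hochberg adjusted p under 0.05 over 12475 genes. Precision is limited by the number of arrays. The 2 Gy arrays lay on slide 1 and the 5x2 Gy arrays on slide 2, per the image names, so slide and regimen cannot be told apart within the 6 arrays. Of the 10 Gy arrays, replicate 1 lay on slide 1 and replicate 2 on slide 2. A fit of all 8 arrays with slide as a block therefore equals the difference minus that between the 2 arrays of 10 Gy, and its estimate carries all the spread of this pair. Its test takes the spread from the 2 Gy and 5x2 Gy arrays only, so a call in that fit does not measure the spread of this pair. Log2 ratios correlated over genes with r of 0.65 to 0.83 among the 2 Gy arrays, 0.83 to 0.89 among the 5x2 Gy arrays and 0.50 to 0.59 between the regimens. The 2 arrays of 10 Gy correlated with each other with r of 0.43. Between the 5x2 Gy arrays and replicate 2 of 10 Gy, which shared their slide, r was 0.75 to 0.86, and for replicate 1 it was 0.36 to 0.43. The 2 Gy arrays correlated with replicate 1, on their own slide, with r of 0.39 to 0.52, and with replicate 2, on the other slide, with r of 0.47 to 0.57. Irradiated cells gave a signal above background on 44.9% to 47.5% of the probes on 2 Gy arrays and 34.7% to 36.0% on 5x2 Gy arrays, against 44.8% to 49.1% for untreated cells.

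The label of the line was set against marker genes. The keratins Krt8, Krt18 and Krt19 and the mesenchymal Vim, Fn1, S100a4, Snai2, Zeb1 and Twist1 were above background on 6 of 6 arrays in both channels, whereas the epithelial adhesion genes Epcam and Cdh1 were on 0. Of 8 markers of lung epithelium, the regulator Nkx2-1 and the genes Sftpa1, Sftpd and Foxj1 were on 0 arrays in either channel, while in the untreated channel Sftpb and Scgb1a1 were on 4 and Sftpc and Ager on 1, and in irradiated cells Scgb1a1 was on 2. Of the leukocyte markers reported, Ptprc, Adgre1, Itgam and Csf1r were on 0 and Cd68 and Cd14 on 6 in both channels. Cd3e was on 6 in untreated and 3 in irradiated cells, Lyz2 on 3 and 2 and Lyz1 on 3 and 1. Of 6 endothelial markers, Pecam1, Tek, Vwf and Erg were on 0, Cdh5 on 2 and 2 and Kdr on 1 and 0. The fibroblast markers Col3a1 and Acta2 were on 6 in both channels, and the globin gene Hba-a1 was on 4 and 3. The part of such cells in the results was not tested.

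After 5x2 Gy, many genes of cholesterol synthesis, glycolysis, the respiratory chain and mitosis were lower than after a single 2 Gy, and the matrix protease Mmp3, the complement gene C3, ceruloplasmin (Cp) and several p53 targets were higher. In all, 3862 of the 12475 genes were called (31%), 1614 of them higher (12.9%) and 2248 lower (18%). Most differences were small, since 53 genes (0.425%) were called and differed at least 2-fold, 16 higher and 37 lower. The values of the regimens did not overlap for 5901 genes (47.3%). Loess normalization set the balance of directions. Under plain median centring the calls split into 899 higher and 3714 lower, with the median over all genes at -0.13 instead of -0.02. Among genes above background in both channels on all 6 arrays, 1475 were higher and 1471 lower.

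**Figure D1:**
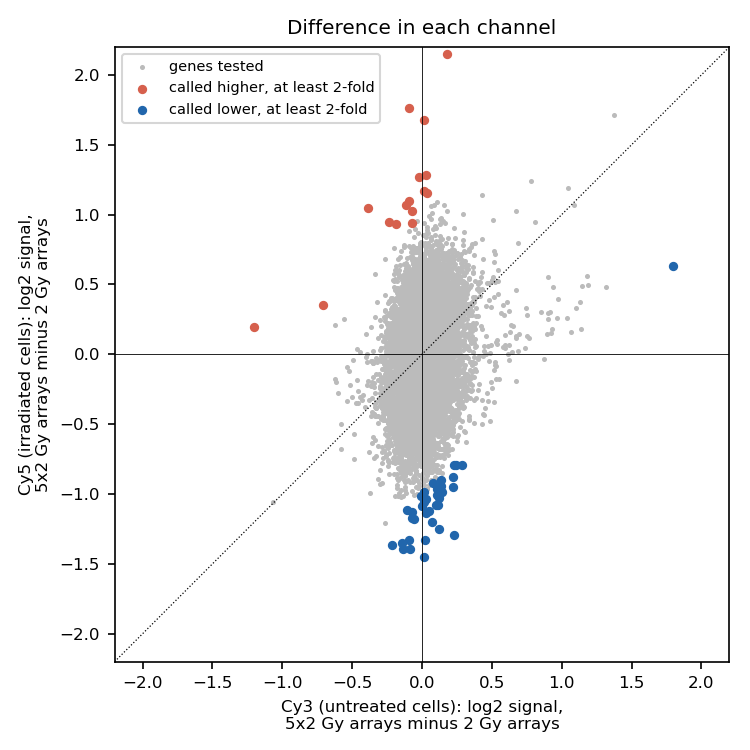
Difference between 5x2 Gy and 2 Gy arrays in the Cy3 signal of untreated cells (x axis) and the Cy5 signal of irradiated cells (y axis), both in log2 units, with 1 point per gene and the genes called at least 2-fold in colour. Of those 53 genes, 50 differed more in Cy5 than in Cy3.

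The untreated cells of both slides could be set against each other, as every array carried them. In that channel 46 genes were called (0.369%), 41 of them higher on slide 2. In the channel of irradiated cells 4670 genes were called (37.4%). Of the 3862 genes called on ratios, 3629 differed more in Cy5 than in Cy3, as the plot of both channels shows. Across genes, the SD of the difference was 0.34 in Cy5 and 0.14 in Cy3. This compares the untreated RNA of both slides and does not test a slide effect on Cy5 alone.

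Relative to untreated cells, the called genes fell into several patterns. Of the genes called higher, 451 were above 0 on all 6 arrays, and 420 were below 0 on every 2 Gy array and above 0 on every 5x2 Gy array. Of the genes called lower, 575 were below 0 on all 6 arrays and another 575 went from above 0 on every 2 Gy array to below 0 on every 5x2 Gy array. A further 116 were lower after 5x2 Gy and yet above 0 on all 6 arrays.

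Mmp3, the secreted protease stromelysin that cuts matrix proteins, rose the most among the genes named by rule. Its log2 ratios were -0.76, -0.57 and -0.55 on the 2 Gy arrays and 1.23, 1.19 and 1.28 on the 5x2 Gy arrays, a difference of 1.86 ± 0.11 or 3.62-fold (limma, adjusted p = 1.91e-05). It was thus below untreated cells after 1 fraction and above them after 5. The 10 Gy arrays stood at -0.97 and 0.57, in the order of their slides, and the difference was 0.32 with slide as a block. Mmp10, a second stromelysin, was not above background in irradiated cells of any 2 Gy array and was at least 1.70-fold higher after 5x2 Gy (limma, adjusted p = 0.00133).

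Eif4ebp2, which binds the cap-binding factor eIF4E and holds back translation, stood at 0.40, -0.03 and 0.03 after 2 Gy and at 1.67, 1.85 and 1.87 after 5x2 Gy. Its difference of 1.67 ± 0.13 was 0.25 with slide as a block. The long noncoding RNA Pvt1, transcribed next to Myc, went from -0.33, -0.44 and -0.63 to 0.59, 0.82 and 1.495 (difference 1.44 ± 0.19, or 0.18 with slide as a block). Nrip1, a corepressor of nuclear receptors, lay between -0.21 and -0.15 after 2 Gy and between 0.90 and 0.99 after 5x2 Gy (1.12 ± 0.10, or 0.20 with the block). For these genes, as for Mmp3, the difference was smaller with slide as a block, a fit that rests on the 2 arrays of 10 Gy. The cause was not tested.

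Another group of risers kept or gained size with slide as a block. Cp, the copper-carrying ferroxidase of plasma, stood at 0.49, 0.47 and 0.09 after 2 Gy and at 1.57, 1.54 and 1.82 after 5x2 Gy, a difference of 1.29 ± 0.13 that was 1.20 with the block. C3, the central complement component, went from a mean of 0.41 ± 0.05 (SD, n = 3) to 1.53 ± 0.09 (SD, n = 3), a difference of 1.12 ± 0.10 that was 3.09 with the block. For C3 the 10 Gy arrays stood far apart, at 2.61 on slide 1 and 0.64 on slide 2. The adenylate kinase Ak1 was already near 1 after 2 Gy (1.02, 0.93 and 0.97) and stood at 2.19, 2.05 and 2.24 after 5x2 Gy (1.19 ± 0.10). Crip2, a LIM-domain protein, had the highest ratios of this group, 2.08, 1.40 and 1.78 against 2.84, 2.83 and 2.89 (1.10 ± 0.15). Tgfbi, a matrix protein induced by TGF-beta, went from 0.67, -0.09 and 0.19 to 1.32, 1.49 and 1.43 (1.15 ± 0.17). When slide was a block, 5 genes, Cp, C3, Ak1, Crip2 and Tgfbi, were called among the 12 highest, in the same direction. These calls do not measure the spread between the arrays of 10 Gy.

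The prolactin-family genes Prl2c5 and Prl2c3 were lower than in untreated cells after 2 Gy and close to them after 5x2 Gy. Prl2c5 went from a mean of -1.23 ± 0.58 (SD, n = 3) to 0.03 ± 0.10, and Prl2c3 from -1.44 ± 0.67 to -0.25 ± 0.22. Their differences of 1.26 and 1.18 were 0.20 and 0.97 with slide as a block. The family has near-identical copies, so the probes may share signal. Il1rl1, the receptor of interleukin 33, was called with a difference of 1.40 ± 0.26, but its Cy5 signal differed by 0.20 and its Cy3 signal by -1.20. Its value therefore rests mainly on the untreated cells, and it was the 1 gene of the 12 whose Cy3 difference exceeded 0.5. P3h2, a collagen prolyl hydroxylase, was below background in irradiated cells of the 2 Gy arrays and at least 1.74-fold higher after 5x2 Gy.

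**Figure D2:**
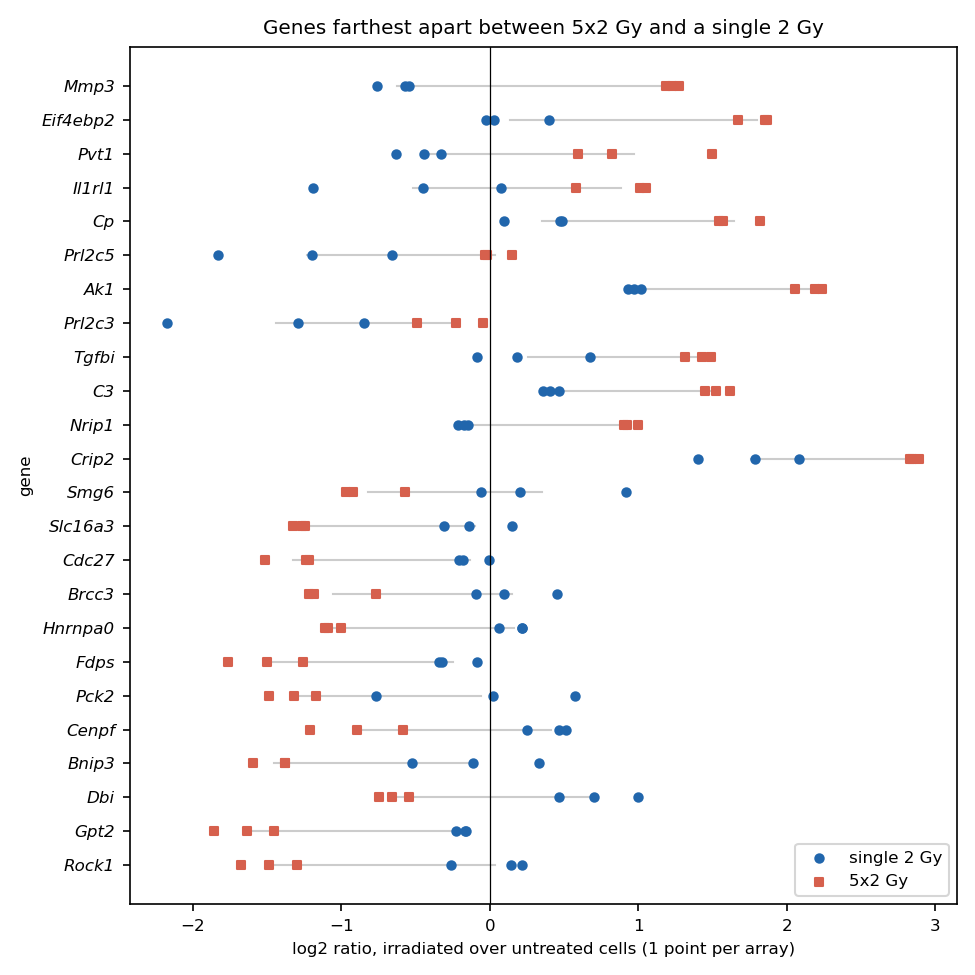
Log2 ratio of irradiated over untreated cells (x axis) on each array for the 12 highest and 12 lowest genes called, 1 point per array and a grey line between the regimen means. The 5x2 Gy points of Mmp3 lie between 1.19 and 1.28 and those of Rock1 between -1.68 and -1.30.

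Rock1, a kinase that drives actomyosin contraction, fell the most among the genes named by rule. It stood at -0.26, 0.22 and 0.14 after 2 Gy and at -1.30, -1.68 and -1.49 after 5x2 Gy, a difference of -1.52 ± 0.15 or 2.87-fold (limma, adjusted p = 0.000527). It was -2.81 with slide as a block. Dbi, the acyl-CoA binding protein, was above untreated cells after 2 Gy (0.46, 1.00 and 0.70) and below them after 5x2 Gy (-0.54, -0.75 and -0.66), a difference of -1.37 ± 0.14. Hnrnpa0, an RNA-binding protein, went from 0.06, 0.22 and 0.22 to -1.09, -1.11 and -1.002 (-1.23 ± 0.10). Brcc3, the deubiquitinase of the BRCA1-A complex at DNA breaks, went from a mean of 0.15 ± 0.28 (SD, n = 3) to -1.06 ± 0.25 (-1.21 ± 0.16).

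Cdc27, a subunit of the anaphase-promoting complex, stood between -0.21 and -0.01 after 2 Gy and between -1.51 and -1.22 after 5x2 Gy (-1.19 ± 0.12). Smg6, the endonuclease of nonsense-mediated decay, differed by -1.17 ± 0.21, with a wide spread of -0.06, 0.92 and 0.20 after 2 Gy. Of the 12 lowest genes, 9 were called in the same direction with slide as a block, and 1, Gpt2, had the opposite sign there (1.17). No gene of these 12 differed by more than 0.23 in Cy3. Some genes were above background in irradiated cells of all 2 Gy arrays and of no 5x2 Gy array. Among them Neil3, a glycosylase of oxidised bases, was at least 1.67-fold lower and Ccdc90b at least 1.69-fold lower.

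Cholesterol synthesis runs from acetyl-CoA over mevalonate and squalene to cholesterol, and its genes share the transcription factor SREBP2. Promoters of 4 genes are shown here, from the lists of cholesterol synthesis, of the hypoxia response and of mitosis, which held large shares of genes called lower. The respiratory chain list also held a large share and was searched as well, but no promoter of it is shown. The 250 bases before each RefSeq start (GRCm38.p6) were searched on both strands for TCACNCCAC (a sterol regulatory element), ACGTG (the core of the hypoxia response element, which a CACGTG matches on both strands), TTTGAA (the CHR element of cell cycle genes) and CCAAT (the NF-Y box). Capitals mark the matches, and each run is written 5′ to 3′ on the strand of its gene:
Hmgcs1, chr13:119690184-119690252, plus strand: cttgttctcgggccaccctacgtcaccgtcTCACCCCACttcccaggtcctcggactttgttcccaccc
Slc16a3, chr11:120949010-120949066, plus strand: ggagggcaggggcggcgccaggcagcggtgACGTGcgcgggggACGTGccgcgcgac
Bnip3, chr7:138909579-138909644, minus strand: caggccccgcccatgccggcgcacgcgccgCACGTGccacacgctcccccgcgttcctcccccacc
Top2a, chr11:99024190-99024242, minus strand: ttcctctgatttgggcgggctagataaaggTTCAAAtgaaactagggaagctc

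The CCAAT box was in the windows of 17 of 18 cholesterol genes with a window (94.4%), against 40.2% of 9831 tested genes and 37.5% of all 27025 genes with one, and it was also in 47 of 64 G2 and mitosis genes (73.4%). The sterol element was in 1 of the 18, that of Hmgcs1, and in 1.26% of the tested genes. ACGTG was in 22 of 34 glycolysis and hypoxia genes (64.7%) and in 12 of the 18 called lower that had a window (66.7%), against 24.7% of the tested genes and 18.5% of all. TTTGAA was in 23 of 64 G2 and mitosis genes (35.9%), against 12.6% of the tested genes and 18.3% of all. The match is one of letters, and shows no binding.

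Of the 25 cholesterol genes measured, 18 were called lower (72%, against 18% over all genes) and none higher (against 12.9%). Their median difference was -0.52, against -0.02 over all genes. On the single arrays the list's median was -0.19, -0.23 and -0.17 after 2 Gy and -0.92, -0.62 and -0.74 after 5x2 Gy, with no overlap. Of the 18, 10 were below untreated cells on all 6 arrays. Fdps, which makes farnesyl pyrophosphate, stood at -0.32, -0.08 and -0.34 after 2 Gy and at -1.76, -1.26 and -1.50 after 5x2 Gy (-1.26 ± 0.14, adjusted p = 0.000803 in limma). Pmvk, the phosphomevalonate kinase, was above untreated cells after 2 Gy (0.08, 0.37 and 0.22) and below them after 5x2 Gy (-0.93, -1.02 and -0.83).

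The sterol reductase Tm7sf2 differed by -1.15 ± 0.15 and the sterol carrier Stard4 by -0.74 ± 0.10. Hmgcs1, the HMG-CoA synthase whose promoter is printed above, went from -0.19, -0.30 and -0.11 to -0.80, -0.62 and -0.74. Hsd17b7, a late enzyme of the pathway, was at least 1.77-fold lower. With slide as a block the list's median was -0.84, with 12 lower and none higher, while Tm7sf2 turned to 0.30. With scaling between arrays 13 were lower and 1 higher. Of 21 genes of fatty acid synthesis, 5 were lower, namely the desaturases Scd2 and Fads2 (the latter with overlapping values), the elongase Elovl6, and Acsl4 and Acss2, which make acyl-CoA, and 2 higher, the elongase Elovl5 and the phosphatidate phosphatase Lpin1. These shares were near those over all genes. Median centring gave 11 lower and 0 higher, and scaling between arrays 2 and 1. Without 2 Gy replicate 2, 2 Gy replicate 3 or 5x2 Gy replicate 3 the number lower was 2, and 3 without 5x2 Gy replicate 1. Scd2 differed by -0.93 ± 0.14, and Acss2 and Elovl5 had the opposite sign with slide as a block (1.04 and -0.55).

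**Figure D3:**
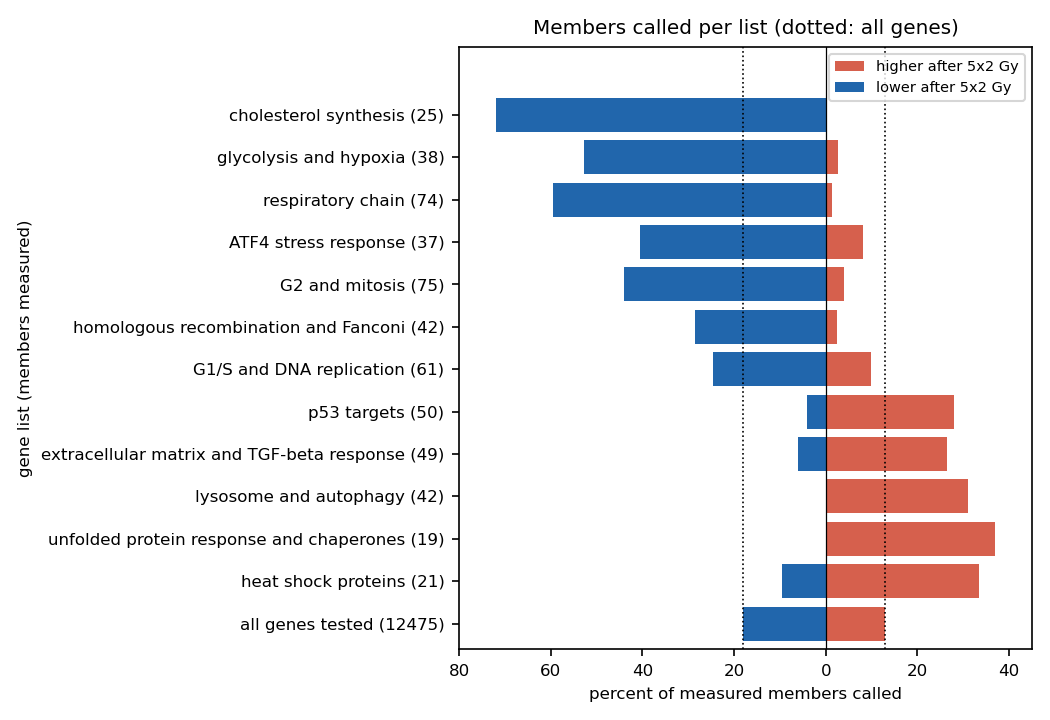
Percent of the measured members of each list called higher (right) or lower (left) after 5x2 Gy, with the number measured in brackets. Dotted lines mark the shares over all genes, 12.9% higher and 18% lower, and the cholesterol bar reaches 72% lower.

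Of 38 genes of glycolysis and hypoxia, many of them targets of HIF1, 20 were lower (52.6%, against 18% over all genes) and 1 higher (2.63%, against 12.9%). The gene higher was the pyruvate dehydrogenase kinase Pdk3 (0.33 ± 0.10, or -0.26 with slide as a block). Of the 20, 8 went from above 0 on every 2 Gy array to below 0 on every 5x2 Gy array. The list's median was 0.06, 0.30 and 0.13 on the 2 Gy arrays and -0.47, -0.13 and -0.24 on the 5x2 Gy arrays. Slc16a3, which exports lactate, stood at -0.31, 0.15 and -0.14 after 2 Gy and at -1.32, -1.26 and -1.24 after 5x2 Gy (-1.18 ± 0.13, limma adjusted p = 0.000663). Bnip3, a mitophagy receptor, went from -0.52, 0.33 and -0.11 to -1.60, -1.38 and -1.38 (-1.35 ± 0.18). Their promoters, printed above, hold the hypoxia core.

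Higd1a, a hypoxia-induced protein of mitochondria, was above 0 on each 2 Gy array (0.21, 0.50 and 0.35) and below on each 5x2 Gy array (-0.76, -0.70 and -0.71). The histone demethylase Kdm3a likewise went from 0.20, 0.25 and 0.27 to -0.82, -0.75 and -0.62. Gapdh, often used as a control, had saturated spots and lay at 0.41, 0.19 and 0.55 after 2 Gy and 0.09, 0.28 and 0.16 after 5x2 Gy, which overlap (-0.21 ± 0.12, adjusted p = 0.199 in limma). The list's median difference of -0.45 was -0.38 with slide as a block, with 10 lower and 3 higher. Without 5x2 Gy replicate 3 the number lower was 13.

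The respiratory chain moves electrons from NADH to oxygen and drives ATP synthase. Of its 74 nuclear-encoded genes 44 were lower (59.5%, against 18% over all genes) and 1 higher (1.35%, against 12.9%). The gene higher was Ndufs1 of complex I (0.41 ± 0.13, or -0.52 with slide as a block). The list's median difference was -0.43. The median log2 ratio was 0.20, 0.22 and 0.29 on the 2 Gy arrays and -0.08, -0.22 and -0.17 on the 5x2 Gy arrays. By channel the list's median difference was -0.31 in Cy5 and 0.12 in Cy3, against -0.01 and 0.01 over all genes. Of the genes called in this list, 37 differed more in Cy5 than in Cy3. Uqcrb, a subunit of complex III, stood at 0.05, 0.02 and 0.18 after 2 Gy and at -0.75, -1.28 and -0.93 after 5x2 Gy (-1.07 ± 0.14, limma adjusted p = 0.00122). Ndufab1 of complex I went from 0.22, 0.23 and 0.29 to -0.48, -0.42 and -0.50 (0.16 with slide as a block). Cox5a of complex IV (-0.97 ± 0.11) and Atp5d of ATP synthase (-0.86 ± 0.12) changed likewise, both with saturated spots.

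Of the 45 genes called, 20 had the opposite sign with slide as a block, where the list's median was -0.09 with 7 lower. Without the 21 genes that had a saturated spot, 32 of 53 were lower. Without 2 Gy replicate 3 the number lower was 27 of 74. Among the 79 cytosolic ribosomal proteins 26 were lower (32.9%, against 18% over all genes), but 75 had saturated spots and 17 were called higher in untreated cells of slide 2. Rpl28 and Rpl37a, for instance, differed by -0.76 and -0.91 in the ratio, but by 0.37 and 0.16 in Cy5 and by 1.13 and 1.07 in Cy3. Rps26 and Rpl10a differed by -0.73 and -0.77. All 4 had positive differences with slide as a block.

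**Figure D4:**
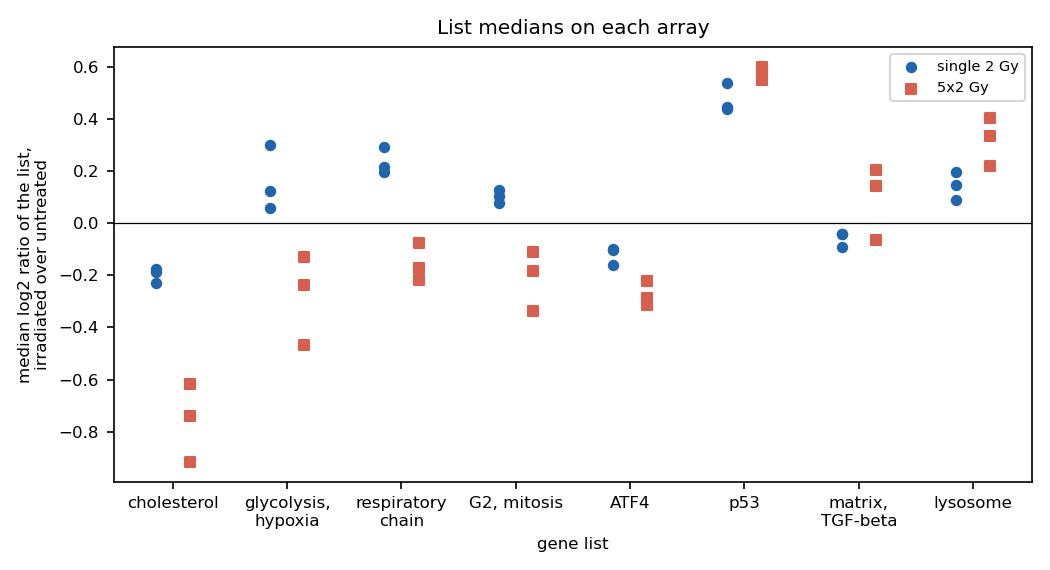
Median log2 ratio (y axis) of 8 gene lists (x axis) on each array, circles for a single 2 Gy and squares for 5x2 Gy. The medians of the glycolysis, respiratory chain and mitosis lists lie above 0 on every 2 Gy array and below 0 on every 5x2 Gy array.

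Genes of G2 and mitosis build the spindle, the kinetochore and the condensed chromosome. Of 75 measured, 33 were lower (44%, against 18% over all genes) and 3 higher (4%, against 12.9%), with a median of -0.33. On the arrays the median was 0.08, 0.10 and 0.13 after 2 Gy and -0.11, -0.34 and -0.18 after 5x2 Gy. Cenpf, a kinetochore protein, stood at 0.25, 0.52 and 0.47 after 2 Gy and at -0.59, -1.21 and -0.89 after 5x2 Gy (-1.31 ± 0.15, limma adjusted p = 0.000966). Ndc80, which ties the kinetochore to microtubules, went from 0.48, 0.63 and 0.45 to -0.42, -0.47 and -0.48. The kinase Aurkb went from 0.63, 0.49 and 0.59 to -0.48, -0.26 and -0.22.

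Top2a, the topoisomerase that untangles sister chromatids, was below untreated cells on all 6 arrays, at -0.09, -0.24 and -0.12 and then at -0.98, -1.22 and -1.07. The genes higher were Mybl2, a transcription factor of the cycle (0.64 ± 0.20, with overlapping values), the separase Espl1 (0.42 ± 0.14) and the kinase Melk (0.33 ± 0.10). With slide as a block the list's median was -1.53, with 60 lower and 1 higher, and Mybl2, Espl1 and Melk turned to -0.76, -1.53 and -0.71. That shift comes from the 2 arrays of 10 Gy, where Ndc80 for example stood at -1.58 on slide 1 and at -0.23 on slide 2. With the median pixel signal in place of the mean, 19 of the list were lower and 1 higher. In bulk RNA, fewer cells in a phase and less RNA per cell cannot be told apart.

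Of 61 G1/S and DNA replication genes 15 were lower (24.6%) and 6 higher, with a median of -0.15, shares near those over all genes. The primase Prim1 stood at -0.16, -0.08 and -0.07 after 2 Gy and -0.89, -0.78 and -0.73 after 5x2 Gy (-0.70 ± 0.10). The clamp loader Rfc3 (-0.66 ± 0.10), the single-strand binding subunit Rpa3 (-0.73 ± 0.13) and the fork protein Timeless (-0.53 ± 0.11) were lower too. Timeless had 2 kept probes, and the other one did not have the same sign. The balance of directions differed between settings, with 11 higher and 7 lower after scaling between arrays (median 0.00), 1 and 31 under median centring (median -0.40) and 0 and 17 with slide as a block (median -0.52). Leaving out 2 Gy replicate 3 left 3 higher and 10 lower.

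Homologous recombination repairs breaks from the sister chromatid, and the Fanconi pathway removes crosslinks. Of these genes 12 of 42 were lower and 1 higher, Fance of the Fanconi core complex (0.45 ± 0.14). In all 31.0% were called, near the 31% over all genes, with 28.6% lower against 18% and 2.38% higher against 12.9%. The checkpoint kinases Chek1 (-0.67 ± 0.11) and Atr (-0.60 ± 0.10) were lower, as were the resolvase Gen1 (-0.82 ± 0.14) and Brca2 (-0.70 ± 0.13). Atr, which senses stalled forks, stood at -0.02, 0.02 and -0.13 after 2 Gy and at -0.59, -0.62 and -0.71 after 5x2 Gy. The fit with the slide block gave 20 of the 42 lower and 1 higher, with Fance at -0.35. With scaling between arrays 7 were lower and 2 higher. Among genes above background in both channels on all 6 arrays, 8 of 32 were lower and 1 higher. The list's median there was 0.001, against -0.10 in the main fit.

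Of 50 p53 targets 14 were higher and 2 lower after 5x2 Gy, with a median of 0.17. In all 32% were called, near the 31% over all genes, with 28% higher against 12.9% and 4% lower against 18%. Of the 14, 10 were above untreated cells on all 6 arrays. The list's median was already 0.45, 0.54 and 0.44 after 2 Gy and was 0.59, 0.55 and 0.60 after 5x2 Gy. Cdkn1a stood at 1.21, 0.55 and 0.89 after 2 Gy and at 1.35, 1.15 and 1.30 after 5x2 Gy. These overlap, and the difference of 0.38 ± 0.15 did not pass the test (limma, adjusted p = 0.0755). Mdm2, at 0.88, 0.20 and 0.37 against 0.71, 0.57 and 0.74, did not pass either (0.19 ± 0.16, adjusted p = 0.374). Trp53 itself, which encodes p53, went from 0.23, -0.01 and 0.09 to 0.50, 0.50 and 0.84 (0.51 ± 0.12, adjusted p = 0.0125).

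Ccng1, the cyclin G1 that recruits a phosphatase to Mdm2, went from 1.19, 1.20 and 0.97 to 1.72, 1.40 and 1.79 (0.51 ± 0.13, adjusted p = 0.0132 in limma), and had a difference of -0.37 with slide as a block. The sulfatase Sulf2 stood at 0.76, 0.55 and 0.73 and then at 1.73, 1.64 and 1.65 (0.99 ± 0.11). The phosphatase Ptp4a3 went from 0.93, 0.62 and 0.81 to 1.70, 1.72 and 1.78, and the ephrin receptor Epha2 rose by 0.55 ± 0.11. Ptp4a3 had 2 kept probes, and the other one did not have the same sign. Lower were the death effectors Bax and Apaf1. Bax, which opens mitochondria, was above untreated cells on all arrays, at 0.84, 0.80 and 0.83 and then at 0.49, 0.47 and 0.54. Apaf1, the core of the apoptosome, had 0.09, 0.83 and 0.77 against -0.10, -0.03 and -0.05.

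The count of p53 targets depended on the processing. It was 6 higher and 5 lower with median centring in place of loess (median 0.01), 6 and 6 with scaling between arrays (median 0.04), and 24 and 0 with slide as a block (median 0.73). With the block Cdkn1a differed by 2.65 and Mdm2 by 1.71, while Bax and Apaf1 turned to 1.05 and 0.22. Without 2 Gy replicate 3 the numbers were 6 higher and 0 lower, without 5x2 Gy replicate 3 they were 8 and 0, and without 2 Gy replicate 2 they were 9 and 1. Trp53 was not called without 5x2 Gy replicate 3 (limma, adjusted p = 0.0566), nor Ccng1 without it or without 2 Gy replicate 3 (0.0588 and 0.0612).

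ATF4 is translated when amino acids run short or proteins misfold, and induces enzymes that make and import amino acids. Of its 37 targets 15 were lower (40.5%, against 18% over all genes) and 3 higher (8.11%, against 12.9%) after 5x2 Gy, with a median of -0.19. The transaminase Gpt2 stood at -0.23, -0.16 and -0.17 after 2 Gy and at -1.86, -1.45 and -1.64 after 5x2 Gy (-1.46 ± 0.12, limma adjusted p = 0.000229). Psph of serine synthesis went from -0.48, -0.31 and -0.05 to -1.36, -1.43 and -1.36, and the pseudokinase Trib3 from -0.68, -0.14 and -0.44 to -1.94, -1.33 and -1.35. Asns, the asparagine synthetase, differed by -1.17 ± 0.13, with saturated spots, and the mitochondrial Pck2 by -1.27 ± 0.26. Cth, which makes cysteine, was at least 1.61-fold lower (a difference of 0.22 with slide as a block).

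Higher in this list were the amino acid transporters Slc1a4 (0.68 ± 0.19) and Slc7a1 (0.60 ± 0.17) and the stress sensor Sesn2 (0.38 ± 0.12). The direction of this list was not kept with slide as a block, and the cause was not tested. In the fit with the slide block 21 were higher and 0 lower, with a median of 0.98, and 14 of the 18 genes called on the 6 arrays had the opposite sign. There Gpt2 stood at 1.17, Psph at 1.16, Asns at 0.79 and Trib3 at 1.92. The 2 arrays of 10 Gy stood far apart here, Gpt2 at 0.52 on slide 1 and -2.11 on slide 2 and Trib3 at 0.99 and -2.04.

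**Figure D5:**
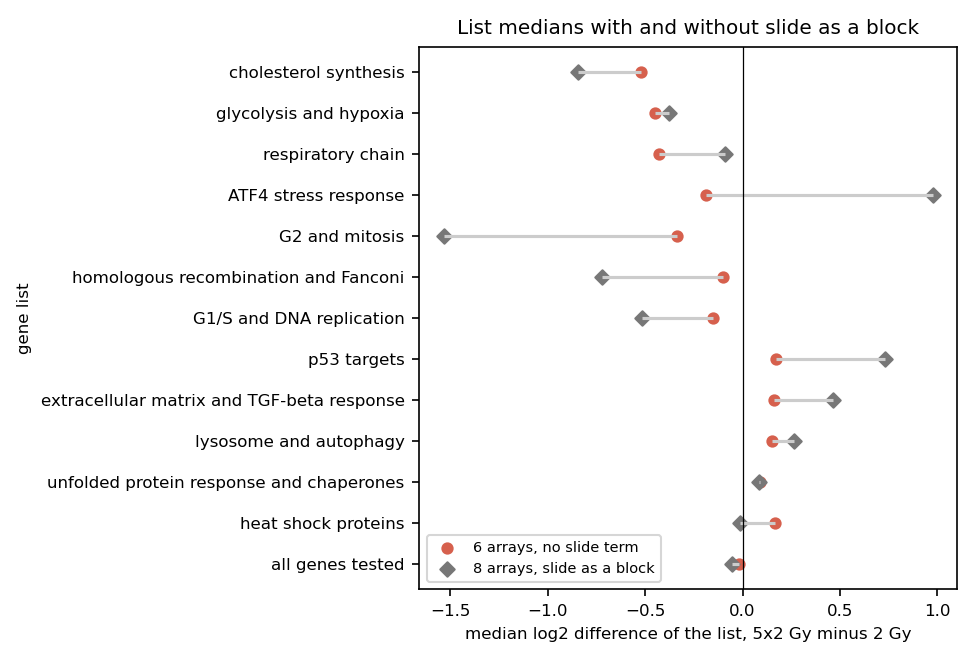
Median log2 difference of each list between 5x2 Gy and 2 Gy (x axis) in the 6 arrays (circles) and in all 8 arrays with slide as a block (diamonds). The ATF4 list moves from -0.19 to 0.98 and the mitosis list from -0.33 to -1.53.

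Matrix and TGF-beta response genes shape the surroundings of a tumour cell. Of 49 measured 13 were higher (26.5%, against 12.9% over all genes) and 3 lower (6.12%, against 18%), with a median of 0.16. In all 32.7% were called, near the 31% over all genes. With slide as a block 16 were higher and 2 lower (median 0.46). Besides Mmp3 and Tgfbi, the matricellular Thbs2 went from 0.16, 0.23 and 0.16 to 1.13, 1.12 and 1.21 (0.97 ± 0.10, limma adjusted p = 0.000527). The integrin Itgb5 went from 0.15, 0.20 and 0.20 to 0.99, 0.81 and 1.14. Lower were P4ha2, which hydroxylates collagen under hypoxia (-0.71 ± 0.16), and Col1a1 and Bgn. Irradiated cells had no signal of Col1a1 above background on any array and of Bgn on 1 of 6, so no fold is given. The list's median was -0.05 under median centring, where 10 members were higher and 3 lower.

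Lysosome and autophagy genes were higher in 13 of 42 and lower in none, with a median of 0.15. In all 31.0% were called, near the 31% over all genes. All of these were higher, against 12.9% higher and 18% lower over all genes. Ctsd, the lysosomal protease cathepsin D, stood at 0.07, 0.48 and 0.58 after 2 Gy and at 1.18, 1.11 and 1.28 after 5x2 Gy (0.81 ± 0.14, limma adjusted p = 0.00309). Gabarapl1, a coat protein of autophagosomes, went from -0.16, 0.02 and 0.02 to 0.76, 0.46 and 0.82. The proton pump subunits Atp6v1a (0.63 ± 0.11) and Atp6v1h (0.51 ± 0.12) rose too. With median centring 5 were higher and 6 lower (median -0.04), with scaling between arrays 8 higher and 1 lower, and with slide as a block 7 higher and 2 lower, with Gabarapl1 at -0.13 and Atp6v1a at -0.42. Without 2 Gy replicate 3 the number higher was 6, and it was 7 without 5x2 Gy replicate 2 or replicate 3.

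Chaperones of the endoplasmic reticulum and cytosol moved by small amounts. Of 19 genes of the unfolded protein response 7 were higher (36.8%, against 12.9% over all genes) and none lower (against 18%). Among the 7 were Hyou1 (0.49 ± 0.14), calnexin, Canx (0.42 ± 0.10), and Edem1 and Sdf2l1 (0.38 ± 0.11 and 0.35 ± 0.10). No other kept probe of Edem1 (3 kept) had the same sign. With median centring none of the 19 was higher and 7 were lower (median -0.20), and without 5x2 Gy replicate 3 none was called. Leaving out another array left at most 4 higher. Of 21 heat shock genes 7 were higher (33.3%, against 12.9% over all genes) and 2 lower (9.52%, against 18%). Hspa4 went from -0.46, -0.65 and -0.52 to 0.27, 0.07 and -0.04, and Hspb8 rose by 0.53 ± 0.10. Hspe1, the mitochondrial co-chaperone, and Hsp90aa1 were lower, by -0.69 ± 0.13 and -0.66 ± 0.16. With median centring 2 heat shock genes were higher and 5 lower, and the number higher was 3 without 2 Gy replicate 3 and 4 without 5x2 Gy replicate 2. With slide as a block 0 genes of the unfolded protein response were higher and 1 lower, and Canx and Edem1 turned to -0.016 and -0.18. In that fit 3 heat shock genes were higher and 2 lower (median -0.01), and Hspa4 turned to -0.31.

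The shares called among genes of immune signalling lay near or below the 31% over all genes. Of 19 chemokines and cytokines measured none was higher and 3 lower, the monocyte attractants Ccl2 and Ccl7 and the neutrophil attractant Cxcl1. Ccl7 stood at 0.94, 0.11 and 0.54 after 2 Gy and at 0.00, -0.52 and -0.14 after 5x2 Gy (-0.75 ± 0.20, limma adjusted p = 0.016). Ccl2 had saturated spots, and differed by -0.24 in Cy5 and 0.50 in Cy3. Cxcl1 at 0.86, 0.93 and 0.52 against -0.25, 0.59 and -0.30 overlapped between regimens. Ccl7 and Cxcl1 turned to 0.38 and 0.77 with slide as a block.

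Of 23 genes of MHC class I presentation 3 were higher, tapasin (Tapbp) and the chaperones Canx and Calr, and 3 lower, the light chain B2m and the proteasome parts Psme1 and Psmb9, which is 26.1% called in all. The list's direction changed with the setting, from a median of -0.13 to -0.31 under median centring (1 higher, 11 lower) and to 0.38 with slide as a block (5 higher, 0 lower). Without 5x2 Gy replicate 3 the numbers were 1 and 3, and leaving out 2 Gy replicate 1 gave 3 and 5. Tapbp, which loads peptides, went from 0.15, 0.10 and 0.45 to 1.09, 1.01 and 0.98 (0.79 ± 0.12). B2m went from 0.45, 0.03 and 0.69 to -0.27, -0.34 and -0.20 (-0.66 ± 0.15). These are the brightest probes, and no other kept probe of Tapbp (2 kept) or B2m (3 kept) had the same sign. B2m, Psme1 and Psmb9 turned to 0.35, 0.35 and 1.44 with slide as a block.

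Of 23 genes of the type I interferon response 2 were higher and 4 lower (26.1% called). The exonuclease Isg20 differed by -1.03 ± 0.14, the kinase Eif2ak2, which senses double-stranded RNA, by -0.47 ± 0.12 and the virus-tethering Bst2 by -0.38 ± 0.11. The transcription factor Irf7 was called lower too, but irradiated cells had no signal of it above background on any array. Higher were the ubiquitin ligase Trim25 (0.38 ± 0.10) and the transcription factor Irf3 (0.33 ± 0.11). Trim25 had 2 kept probes, and the other one did not have the same sign. Isg20 and Bst2 turned to 0.89 and 1.35 with slide as a block, and Trim25 and Irf3 to -0.063 and -0.26. Of 16 NF-kB genes 2 were higher (12.5%), the subunit Rela (0.44 ± 0.11) and the kinase adaptor Ikbkg (0.51 ± 0.11), and 1 lower, the inhibitor family member Bcl3 (-0.82 ± 0.18).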

How the data were processed

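RNA of LLC1 cells, amplified before labelling per the labels' protocols, was measured on dual-colour oligonucleotide arrays. Per the file headers, the deposited scanner files hold the intensity of each spot and channel, not normalized. No local background was subtracted here. Cy5 over Cy3 as log2 ratios, processed by the authors, are deposited in the series matrix. Against loess ratios computed here without background correction its columns gave r of 0.9984 to 0.9998 and slopes of 0.9933 to 0.9992, so scale and direction match. Column medians were -0.0045 to 0.0087, and how they were centred is not given in the sources used here. These values served as an alternative.

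Of 45220 spots per array, 153 were negative controls, and the other spots held 41174 probes. Mean intensities were corrected with normexp (offset 50), normalized by loess within arrays with control spots at weight 0, and averaged per probe in limma 3.58.1 (R 4.3.3). A signal counted as above background when it exceeded the negative controls' median by 2.6 robust SD, probes that did so in either channel on 3 or more of the 6 arrays were kept, and the brightest probe of each symbol was tested. Symbols were updated through RefSeq accessions for 27902 probes, 7027 kept that of the array and 6245 had none. Regimens were compared with lmFit and eBayes on the 6 arrays, and each channel likewise after Aquantile. Spots with a median or mode pixel signal of 65000 or more count as saturated. A signal below background on all arrays of a group was set to the lowest detected signal of each array for a fold of at least that size, which is open to dye bias as the dyes were not swapped.

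The fit was tested on simulated data with independent noise on each array and no slide effect, so it does not test one. In it 200 genes were changed, in equal numbers by a log2 of 1 or of 0.5 in either direction. Of these, 89 with a change of 1 and 31 with a change of 0.5 were called, as were 2 unchanged genes. Genes were named by rule: the 12 highest and 12 lowest called ones with non-overlapping values and both channels above background, up to 4 of each described list by p, all called members of lists with 5 or fewer, 4 per direction with 1 dim channel where this leaves a lower bound, and Cdkn1a, Mdm2, Ccng1, Trp53 and Gapdh. The minority direction of a list, and Hmgcs1 for its promoter, were named after their values were seen. The comparison and the lists were chosen with earlier results of these data known. The alternatives were other background corrections, median centring, scaling, median pixels, the matrix values, other filters, probes and spread models, all 8 arrays with and without slide, a replicate block and leaving out each array.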

Additional observations from a re-analysis of the deposited data

How the results depend on the processing

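Of 3862 genes called, 1614 higher and 2248 lower, the numbers were 2463 (1055 and 1408) with median pixels, 6257 (2815 and 3442) with array weights, and 979 (358 and 621) with a minimum of 1.5-fold. Median centring gave 4613 (899 and 3714), which put 19.5% of the calls higher against 41.8% in the fit reported. No filter on dim probes gave 2520 higher, and probes above background in both channels on all 6 arrays 1471 lower. With all 8 arrays 184 genes were called (51 and 133) without a slide term, 2383 (803 and 1580) with slide as a block and 334 (97 and 237) with slide as a random block, at an estimated correlation of 0.71. With slide as a block 1536 of the 3862 had the opposite sign and 650 were called with the same sign. The 2 arrays of 10 Gy alone tie the slides, so the fit with slide as a block rests on them, though its calls do not measure their spread. The cause was not tested.

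Leaving out 1 array gave 2233 to 3577 genes, 858 to 1508 higher and 1375 to 2069 lower, the fewest without 2 Gy replicate 3. In Cy3, where 46 were called, it gave 12 to 106, and in Cy5 2598 to 4250. Among the genes named, Acsl4, Acss2, Apaf1, Bax, Bgn, Bst2, Calr, Canx, Ccl7, Ccng1, Col1a1, Cxcl1, Edem1, Eif2ak2, Elovl5, Espl1, Fads2, Fance, Hyou1, Irf3, Lpin1, Melk, Mybl2, Ndufs1, Pdk3, Psmb9, Rela, Sdf2l1, Sesn2, Slc1a4, Slc7a1, Trim25 and Trp53 lost the call of limma without at least 1 array.

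A replicate block gave 3432 genes, 3291 of them shared with the same sign. Deviations from the group means correlated by -0.02 for each replicate number, so the ratios showed no effect shared by arrays of the same number. This does not tell whether those arrays were paired in the experiment. With the replicate block Cdkn1a was called and Pdk3, Ndufs1, Bax, Acsl4, Calr and Irf3 were not.

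With slide as a block, log2 differences of opposite sign were Espl1 -1.53, Mybl2 -0.76, Melk -0.71, Elovl5 -0.55, Ndufs1 -0.52, Atp6v1a -0.42, Ccng1 -0.37, Fance -0.35, Hspa4 -0.31, Pdk3 -0.26, Irf3 -0.26, Edem1 -0.18, Gabarapl1 -0.13, Trim25 -0.063, Canx -0.016, Rpl10a 0.072, Bgn 0.13, Ndufab1 0.16, Rps26 0.18, Apaf1 0.22, Cth 0.22, Col1a1 0.26, Tm7sf2 0.30, Rpl37a 0.33, B2m 0.35, Psme1 0.35, Ccl7 0.38, Cxcl1 0.77, Asns 0.79, Isg20 0.89, Acss2 1.04, Bax 1.05, Psph 1.16, Gpt2 1.17, Bst2 1.35, Psmb9 1.44, Rpl28 1.48 and Trib3 1.92. With slide as a random block they were Espl1 -0.96, Melk -0.40, Mybl2 -0.35, Elovl5 -0.27, Ndufs1 -0.25, Fance -0.12, Ccng1 -0.12, Atp6v1a -0.11, Pdk3 -0.089, Irf3 -0.087, Hspa4 -0.031, Edem1 -0.013, Ccl7 0.046, B2m 0.054, Col1a1 0.080, Psme1 0.091, Asns 0.22, Cxcl1 0.33, Isg20 0.33, Gpt2 0.40, Psph 0.50, Acss2 0.62, Bax 0.65, Rpl28 0.82, Bst2 0.85, Psmb9 0.91 and Trib3 1.03. Edem1 was -0.022 with the mean of its probes and Col1a1 0.39 without the filter on dim probes. The cause was not tested. No named and called gene changed sign with the other backgrounds, scaling, the matrix values, median pixels, other spread models or without 1 array. Irradiated cells had fewer probes above background after 5x2 Gy, which limits the folds of dim genes to bounds.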
